A study of Mus musculus with 6 samples.

Results

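The glucose and lactate transporter group was made up of 7 genes, found by symbol among the 54532 genes of the deposited count table, and all 7 passed the filter on low counts. They encode glucose transporters (*Slc2a1*, *Slc2a3*, *Slc2a4* and *Slc2a8*), monocarboxylate transporters (*Slc16a1* and *Slc16a3*) and basigin (*Bsg*). They were picked by name, for the role of their proteins in transport, and not by a threshold on the measured values. The choice was made with earlier results of these data known. RNA-seq had been performed on single hearts of E9.5 mouse embryos, 3 *Smyd1-KO* and 3 WT. *Smyd1-KO* embryos were homozygous for a null allele of *Smyd1*, a histone methyltransferase gene of striated muscle, and descended from *Smyd1*+/- mice of a commercial strain. The allele is constitutive, carried by all cells of the embryo and not by cardiomyocytes alone. Embryos of both sexes were used, no treatment was given to either genotype, and the litter of each embryo was not given in the sources used here. Both genotypes were compared to ask how RNA levels changed in the mutant, just before the mutant embryos die.

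Glucose enters cells down its gradient through the SLC2 or GLUT proteins. GLUT1 (*Slc2a1*) serves basal uptake in most embryonic cells, GLUT3 (*Slc2a3*) is a high-affinity form best known from neurons and placenta, GLUT4 (*Slc2a4*) is the insulin-responsive form of adult heart, skeletal muscle and fat, and GLUT8 (*Slc2a8*) sits mainly on membranes inside the cell. Lactate, the end product of anaerobic glycolysis, crosses the plasma membrane with a proton through MCT1 (*Slc16a1*) or MCT4 (*Slc16a3*), the latter typical of cells that export much lactate, and basigin is the chaperone that brings both to the cell surface. The early embryonic heart draws much of its energy from glycolysis, before it turns to oxidative metabolism.

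The sequence upstream of 4 of the 7 genes (not *Slc2a3*, *Slc2a4* or *Bsg*) was taken from RefSeq (GRCm38.p6) and is shown because transporters that differed in their response can be compared there. Each runs 5′ to 3′ on the strand of the gene over 241 bases that begin 250 bases before the RefSeq start. *Slc2a1* lies at chr4:119108495-119108735 on the + strand, *Slc16a3* at chr11:120948817-120949057 on the + strand, *Slc16a1* at chr3:104638414-104638654 on the + strand and *Slc2a8* at chr2:32982093-32982333 on the − strand. Capitals mark ACGTG on either strand. ACGTG and GCGTG are forms of a core to which hypoxia-inducible factors and other factors can bind, and GCGTG is left in small letters.
Slc2a1: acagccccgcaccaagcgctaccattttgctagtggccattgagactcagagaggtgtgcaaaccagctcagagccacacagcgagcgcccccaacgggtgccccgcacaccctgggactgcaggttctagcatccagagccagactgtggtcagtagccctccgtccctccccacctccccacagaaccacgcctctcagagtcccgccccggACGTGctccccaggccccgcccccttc
Slc16a3: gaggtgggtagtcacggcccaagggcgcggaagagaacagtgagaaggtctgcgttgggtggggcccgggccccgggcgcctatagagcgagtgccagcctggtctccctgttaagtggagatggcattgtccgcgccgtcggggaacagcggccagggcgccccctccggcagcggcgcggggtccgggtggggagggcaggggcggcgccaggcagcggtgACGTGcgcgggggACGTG
Slc16a1: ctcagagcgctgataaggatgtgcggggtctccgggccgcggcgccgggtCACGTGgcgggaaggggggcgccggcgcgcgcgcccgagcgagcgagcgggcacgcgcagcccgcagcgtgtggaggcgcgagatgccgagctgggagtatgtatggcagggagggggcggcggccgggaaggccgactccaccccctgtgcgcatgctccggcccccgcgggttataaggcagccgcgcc
Slc2a8: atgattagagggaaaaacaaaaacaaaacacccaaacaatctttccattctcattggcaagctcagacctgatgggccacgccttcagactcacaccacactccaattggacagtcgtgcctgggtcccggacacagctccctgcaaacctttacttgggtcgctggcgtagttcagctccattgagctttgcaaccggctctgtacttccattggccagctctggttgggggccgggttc
The *Slc2a1* sequence held ACGTG once, 36 bases before the start. *Slc16a3* held it at 27 and at 14 bases before the start. In *Slc16a1* it was read on both strands of a single CACGTG, 200 bases before the start, so that both matches overlapped, and *Slc2a8* had no ACGTG in this window. Of 32851 RefSeq upstream windows of 250 bases, 16.6% held ACGTG on either strand and 6.02% held CACGTG in full. The letters GCGTG, held by 28.2% of the windows, was found once in *Slc2a1*, once in *Slc2a8*, at 2 places in *Slc16a1* and not in *Slc16a3*. GGGCGG, the box of Sp factors, held by 32.7%, was found at 2 places in *Slc2a1*, at 1 in *Slc16a1* and at 1 in *Slc16a3*. A match describes letters only, and binding was not measured. The annotated starts of *Slc2a1* and *Slc16a3* in GENCODE lie upstream of the RefSeq ones, so the end of the *Slc2a1* window and the whole *Slc16a3* window are inside the GENCODE gene.

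The libraries held between 48627825 and 64217529 counts on genes. *Smyd1* read 101, 222 and 206 CPM (counts scaled to a library of 1000000) in *Smyd1-KO* hearts 1 to 3 and 414, 379 and 270 CPM in WT hearts 1 to 3. Its values were lower in every *Smyd1-KO* heart, at a log2 fold change of -1.01 (SE 0.300), and missed the adjusted threshold (adjusted *P* = 0.0973). Counts are summed over the whole gene and do not show which exons were read. The heart label was checked against 10 cardiomyocyte genes. All 10 were found, with a summed level of 9197, 18719 and 18982 CPM in the *Smyd1-KO* group, against 20400, 19174 and 12276 in the WT group. *Smyd1-KO* heart 1 and WT heart 3 were thus the lowest of their genotype. With edgeR 0 of the 10 were called, and DESeq2 also called 0. At an unadjusted *P* under 0.05, 1 was lower in *Smyd1-KO*, as were 11.9% of all tested genes. Erythroid markers, of which 11 of 12 were found, summed to 24.4-279 CPM in the mutant and to 750-1000 CPM in the WT group. Of these, edgeR called 3 lower in the mutant (1.42% of all tested genes) and DESeq2 called 9 lower (3.31% of all genes). At an unadjusted *P* under 0.05, 11 of 11 were lower, against 11.9% of all tested genes. In whole hearts, fewer cells of a type and less RNA per cell cannot be told apart.

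Transcripts of 5 of the 7 genes rose in *Smyd1-KO* hearts, and 2 did not pass the test. *Slc2a3* had the largest rise, 3.41-fold, followed by *Slc2a1*, *Slc2a4*, *Bsg* and *Slc16a3*, all between 1.81-fold and 2.58-fold. *Slc2a8* and *Slc16a1*, the intracellular GLUT and the widespread MCT, stayed at 1.27-fold and 1.15-fold and were not called. A gene was called when edgeR gave an adjusted *P* under 0.05 and a log2 fold change of at least 0.5 in size, and 2.86% of the 19372 tested genes were called higher by this rule. None of the 7 was called lower, against 1.42% of the tested genes, and 0 were lower at an unadjusted *P* under 0.05, against 11.9%. Higher at that unadjusted threshold were 6, against 13.1%. In 6 of the 7, every *Smyd1-KO* heart lay above every WT heart, as it did in 15.9% of the tested genes. The median log2 fold change of the 7 was 1.02, beside -0.0026 over all tested genes. DESeq2, the program of the study, called the same 5 genes higher and 0 lower, against 5.98% and 3.31% of the 18821 genes for which it gave an adjusted *P*. Fits that left out 1 heart are given with the share of all tested genes called higher in the same fit. The count was 5 without *Smyd1-KO* heart 1 (4.04%) and 4 without WT heart 1 (1.81%). It was 2 without *Smyd1-KO* heart 2 (0.986%) and 2 without *Smyd1-KO* heart 3 (1.37%). Without WT heart 2 it was 1 (0.449%), and without WT heart 3 it was 2 (0.656%).

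*Slc2a1* (ENSMUSG00000028645, chr4:119108711-119137983, + strand, GRCm38) read 1946, 2151 and 2571 CPM in *Smyd1-KO* hearts 1 to 3 and 999, 826 and 763 CPM in WT hearts 1 to 3. All mutant hearts lay well above the highest WT heart. The log2 fold change was 1.37 (SE 0.150, 95% interval 1.01 to 1.72, adjusted *P* = 0.00654). Without WT heart 2 the adjusted *P* was 0.0544, and with any other heart left out the call was kept. By mean CPM it was 99th among the tested genes in WT hearts and 19th in *Smyd1-KO* hearts. The antisense gene *Gm12868* overlaps 2.99% of its exonic bases, and its own counts came to 0.0774% of those of *Slc2a1*. The strand setting of the counting was not given in the sources used here.

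*Slc2a3* (ENSMUSG00000003153, chr6:122727809-122801640, − strand) read 1843, 1672 and 1949 CPM in the *Smyd1-KO* group, against 514, 483 and 604 in the WT group. The mutant hearts lay close together and far above all WT hearts. The log2 fold change was 1.77 (SE 0.121, 95% interval 1.49 to 2.06, adjusted *P* = 0.000997), and the call was kept in 6 of 6 fits that left out a heart, at 1.70 to 1.87. It was 208th by mean CPM in WT hearts and 26th in *Smyd1-KO* hearts. WT heart 3, the lowest WT heart in *Slc2a1*, was the highest WT heart in *Slc2a3*.

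*Slc2a4* (ENSMUSG00000018566, chr11:69942539-69948188, − strand) was far scarcer, at 21.4, 36.1 and 32.8 CPM in the *Smyd1-KO* group, against 12.9, 12.8 and 9.49 in the WT group. *Smyd1-KO* heart 1 stood apart from the other mutant hearts but was still above every WT heart. The log2 fold change was 1.36 (SE 0.220, 95% interval 0.84 to 1.88, adjusted *P* = 0.0199). The call was kept without *Smyd1-KO* heart 1 and lost without each of the other 5 hearts, at an adjusted *P* of 0.0560 to 0.0989.

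*Slc2a8* (ENSMUSG00000026791, chr2:32972990-32982083, − strand) read 20.4, 20.5 and 18.0 CPM in the *Smyd1-KO* group, against 15.1, 16.8 and 14.4 in the WT group. The genotypes did not overlap, but the distance between them was small, at a log2 fold change of 0.35 (SE 0.114, 95% interval 0.08 to 0.61). Its unadjusted *P* was 0.0180 and its adjusted *P* 0.118, so it was not called, and the upper end of the interval was 1.53-fold.

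**Figure D1:**
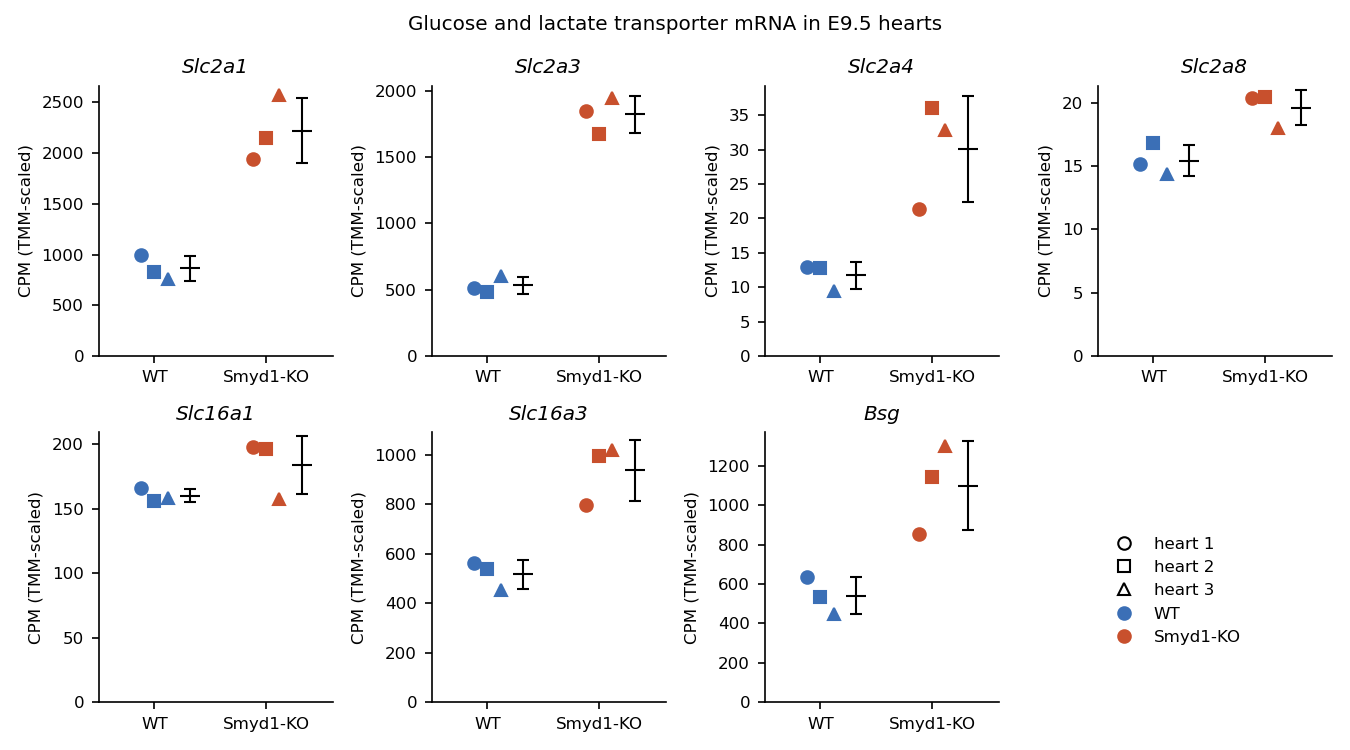
Each panel plots 1 gene, with TMM-scaled CPM from 0 on the vertical axis and genotype on the horizontal axis; a symbol is 1 heart (circle, square and triangle for hearts 1, 2 and 3 of a genotype), and the black bar is the mean ± SD of 3 hearts. The *Smyd1-KO* and WT symbols are apart in 6 panels, by most in *Slc2a3* (1672-1949 against 483-604 CPM), and overlap in *Slc16a1* (158-198 against 156-166 CPM).

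Among the lactate carriers, *Slc16a3* rose and *Slc16a1* did not pass the test. *Slc16a3* (ENSMUSG00000025161, chr11:120948480-120960868, + strand) read 795, 996 and 1018 CPM in the *Smyd1-KO* group, against 564, 538 and 452 in the WT group, without overlap. The log2 fold change was 0.85 (SE 0.135, 95% interval 0.54 to 1.17, adjusted *P* = 0.0192). The call was kept without *Smyd1-KO* heart 1 or WT heart 1 and lost without each of the other 4 hearts, at an adjusted *P* of 0.0566 to 0.103. *Slc16a1* (ENSMUSG00000032902, chr3:104638668-104658462, + strand) read 198, 196 and 158 CPM in the *Smyd1-KO* group, against 166, 156 and 158 in the WT group. *Smyd1-KO* heart 3 lay within the WT values. The log2 fold change was 0.20 (SE 0.105, 95% interval -0.05 to 0.45, adjusted *P* = 0.290), an interval that stays below the size needed for a call.

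Transcripts of basigin, the partner of both lactate carriers, rose as well. *Bsg* (ENSMUSG00000023175, chr10:79704491-79711969, + strand) read 854, 1143 and 1299 CPM in the *Smyd1-KO* group, against 636, 535 and 449 in the WT group. The log2 fold change was 1.02 (SE 0.188, 95% interval 0.58 to 1.47, adjusted *P* = 0.0292). The call was lost without *Smyd1-KO* heart 2 or 3 and without WT heart 2 or 3, at an adjusted *P* of 0.0709 to 0.137. The other immunoglobulin-type partners of monocarboxylate transporters, embigin (*Emb*) and neuroplastin (*Nptn*), had log2 fold changes of -0.23 and 0.03. edgeR called 0 of these 2, and DESeq2 called 0. At an unadjusted *P* under 0.05 there were 0, against 13.1% higher and 11.9% lower over all tested genes.

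Compared per length, *Bsg* and *Slc2a1* were the most abundant of the 7 transcripts in both genotypes, and the order of the others differed between them. In WT hearts the mean level in CPM per kb of exon was 298 ± 51.7 (SD, n = 3) for *Bsg*, 246 ± 34.9 for *Slc2a1*, 97.4 ± 11.1 for *Slc16a3*, 73.6 ± 8.67 for *Slc2a3*, 36.2 ± 1.20 for *Slc16a1*, 4.81 ± 0.388 for *Slc2a8* and 3.37 ± 0.557 for *Slc2a4*. The hearts of *Bsg* and *Slc2a1* overlapped, and those of every other pair of neighbours did not. In *Smyd1-KO* hearts the level was 634 ± 90.8 for *Slc2a1*, 605 ± 125 for *Bsg*, 251 ± 19.3 for *Slc2a3*, 176 ± 23.1 for *Slc16a3*, 41.5 ± 5.12 for *Slc16a1*, 8.65 ± 2.22 for *Slc2a4* and 6.11 ± 0.433 for *Slc2a8*. Here *Slc2a1* overlapped *Bsg*, and *Slc2a4* overlapped *Slc2a8*. *Slc2a3* thus stood below *Slc16a3* in WT and above it in *Smyd1-KO* hearts, with separate values both times. *Slc2a4*, the lowest of the 7 in WT, had a higher mean than *Slc2a8* in *Smyd1-KO* hearts. With the length of the longest transcript in place of the union of exons, *Bsg* had the highest mean in both genotypes, still overlapping *Slc2a1*, and *Slc2a4* no longer overlapped *Slc2a8* in *Smyd1-KO* hearts.

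**Figure D2:**
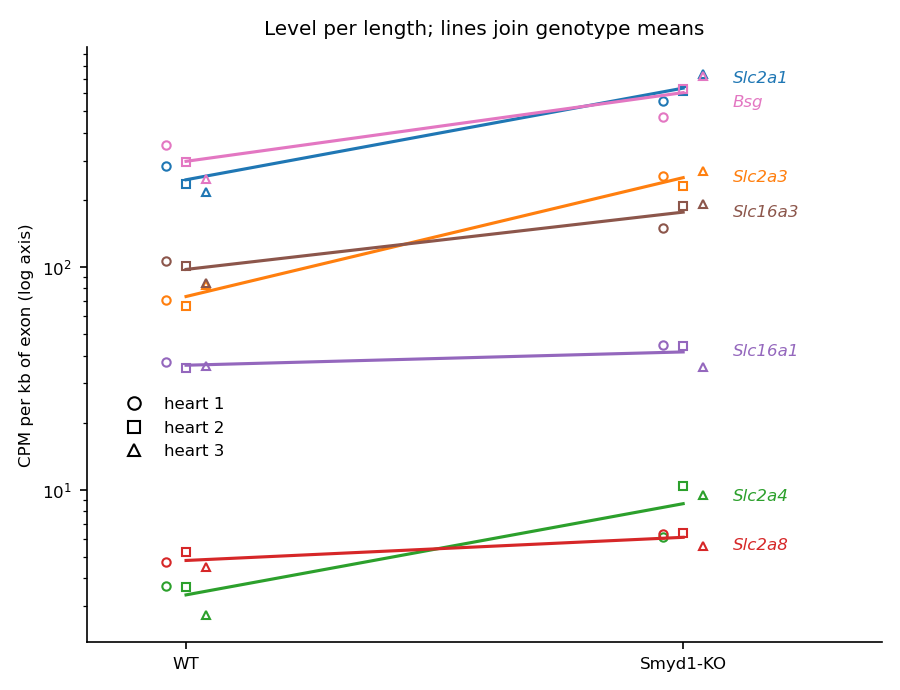
The vertical axis (log scale) gives CPM per kb of exon, the horizontal axis the genotype; each symbol is 1 heart, each colour a gene, and lines join the genotype means. The lines of *Slc2a3* and *Slc16a3* cross (73.6 and 97.4 in WT, 251 and 176 in *Smyd1-KO*), as do those of *Slc2a4* and *Slc2a8* and those of *Slc2a1* and *Bsg*, while *Slc16a1* stays at 36.2 and 41.5.

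Summed over the 4 glucose transporters, the level per kb was 328 ± 31.6 CPM per kb (SD, n = 3; 308 to 364) in WT and 900.2 ± 103 (822 to 1017) in *Smyd1-KO* hearts. *Slc2a1* made up most of this sum in both genotypes, 74.9% ± 3.87 in WT and 70.3% ± 2.43 in *Smyd1-KO* hearts. *Slc2a3* made up 22.6% ± 3.94 and 28.1% ± 2.51, and the hearts of the genotypes overlapped in the shares of both genes. *Slc2a4*, the adult muscle form, held 1.03% ± 0.148 in WT and 0.960% ± 0.231 in *Smyd1-KO* hearts. *Slc2a8* held 1.48% ± 0.196 and 0.688% ± 0.119, without overlap. Of the summed level of both monocarboxylate transporters, *Slc16a3* held 72.8% ± 2.08 in WT (70.4% to 74.1%) and 80.7% ± 3.67 in *Smyd1-KO* hearts (77.0% to 84.3%), also without overlap.

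Whether members moved by unequal amounts was tested on 5 ratios within each heart, with a two-sided exact permutation test. The test compares 3 hearts with 3 and cannot give a *P* below 0.1, so that no ratio could pass 0.05. The log2 ratio of *Slc2a3* to *Slc2a1* was 0.41 higher in *Smyd1-KO* hearts (-0.28 ± 0.176 against -0.69 ± 0.319, SD, n = 3, exact permutation *P* = 0.3, adjusted over the 5 ratios 0.375). WT heart 3, at -0.34, lay among the *Smyd1-KO* hearts. *Slc2a4* to *Slc2a1* differed by -0.03 with overlapping hearts (exact permutation *P* = 0.9). The remaining ratios were separate between the genotypes and reached the smallest *P* the test allows. *Slc2a8* to *Slc2a1* was lower by 1.02 on the log2 scale (-6.81 ± 0.302 against -5.79 ± 0.220), *Slc16a3* to *Slc16a1* was higher by 0.66 (2.35 ± 0.342 against 1.69 ± 0.150), and *Bsg* to *Slc16a1* was higher by 0.83 (2.57 ± 0.467 against 1.74 ± 0.218). Each of these 3 had an exact permutation *P* of 0.1, or 0.167 after adjustment over the 5.

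Most related genes were not called. They were further sugar and SLC16 transporters, sodium-coupled carriers, basigin relatives, 14 genes of GLUT4 vesicle traffic and 6 enzymes or carriers next to transport. Of 51 listed, all were in the table, 41 passed the filter, 3 were called higher and 0 lower by edgeR (2.86% and 1.42% of all tested genes). At an unadjusted *P* under 0.05, 6 were higher and 3 lower, against 13.1% and 11.9% of all tested genes. DESeq2 called 5 higher and 2 lower, against 5.98% and 3.31% of all genes. Their median log2 fold change was 0.03, and in 8 of the 41 every *Smyd1-KO* heart lay above every WT heart, where 15.9% of all tested genes did. The 3 called genes were *Hk2*, *Ldha* and *Slc16a6*, and the first 2 act next to the transport steps.

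*Hk2*, the hexokinase that traps glucose after entry, read 553, 643 and 630 CPM in the *Smyd1-KO* group, against 250, 261 and 245 in the WT group. Its log2 fold change was 1.27 (SE 0.0934, adjusted *P* = 0.00122), and the call was kept in 6 of 6 fits that left out a heart. *Ldha*, the lactate dehydrogenase subunit that favours lactate formation, read 3792, 4097 and 3970.0 CPM in the *Smyd1-KO* group, against 3058, 2313 and 2351 in the WT group. Its log2 fold change was 0.62 (SE 0.133, adjusted *P* = 0.0439). The *Ldha* call was lost without *Smyd1-KO* heart 2 or 3 and without WT heart 2 or 3, at an adjusted *P* of 0.106 to 0.184. The other isoforms did not pass the test: *Hk1* had a log2 fold change of 0.39 (adjusted *P* = 0.428) and *Ldhb* one of 0.13 (adjusted *P* = 0.710). *Mpc1* and *Mpc2*, the carrier subunits that take pyruvate into mitochondria, were at 0.03 and -0.07.

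Of the other 8 facilitative hexose transporters, 6 were tested and edgeR called 0. At an unadjusted *P* under 0.05, 0 were higher and 1 lower, against 13.1% and 11.9% of all tested genes. That 1 was *Slc2a5*, the fructose transporter, at 3.89, 3.15 and 2.42 CPM in the *Smyd1-KO* group, against 5.61, 4.77 and 4.52 in the WT group (log2 fold change -0.66, adjusted *P* = 0.122), which DESeq2 called lower. *Slc2a2*, the GLUT of liver and pancreatic islets, and *Slc2a7* were too low for a test. None of the 6 reached 10 CPM in any heart. Of 7 sodium-coupled sugar transporters only *Slc5a11* was tested, at -0.20, and of the 2 sodium-coupled monocarboxylate transporters, *Slc5a8* and *Slc5a12*, neither was.

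All 12 other SLC16 genes were tested. Of these, 3 were higher and 2 lower at an unadjusted *P* under 0.05, against 13.1% and 11.9% of all tested genes. *Slc16a6* read 27.1, 25.5 and 25.2 CPM in the *Smyd1-KO* group, against 18.5, 16.2 and 13.1 in the WT group and rose by a log2 fold change of 0.70 (SE 0.141, adjusted *P* = 0.0368). Without WT heart 1 that call was kept, and without each of the other 5 hearts the adjusted *P* was 0.0501 to 0.144. *Slc16a9* (log2 fold change 1.48, adjusted *P* = 0.0721) had higher values in every *Smyd1-KO* heart, and the aromatic amino acid transporter *Slc16a10* had lower ones (-0.81, adjusted *P* = 0.0522). edgeR called neither of the last 2, while DESeq2 called both. *Slc16a13* was also lower in every *Smyd1-KO* heart (log2 fold change -0.43, edgeR adjusted *P* = 0.121), and neither program called it. Many SLC16 proteins carry substrates other than lactate.

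GLUT4 is held in vesicles that move to the surface on insulin signals. Of 14 genes of this traffic, all were tested, edgeR called 0 and DESeq2 called 0. At an unadjusted edgeR *P* under 0.05, 1 was higher and 0 lower, against 13.1% and 11.9% of all tested genes. The 1 was *Lnpep*, an aminopeptidase that travels in the GLUT4 vesicle, at 43.3, 49.4 and 51.1 CPM in the *Smyd1-KO* group, against 35.1, 38.4 and 36.8 in the WT group (log2 fold change 0.38, SE 0.0916, adjusted *P* = 0.0579). The log2 fold changes of the 14 ran from -0.57 (*Tbc1d4*) to 0.38, with a median of 0.06. *Slc2a4*, the cargo, stood at 1.36.

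**Figure D3:**
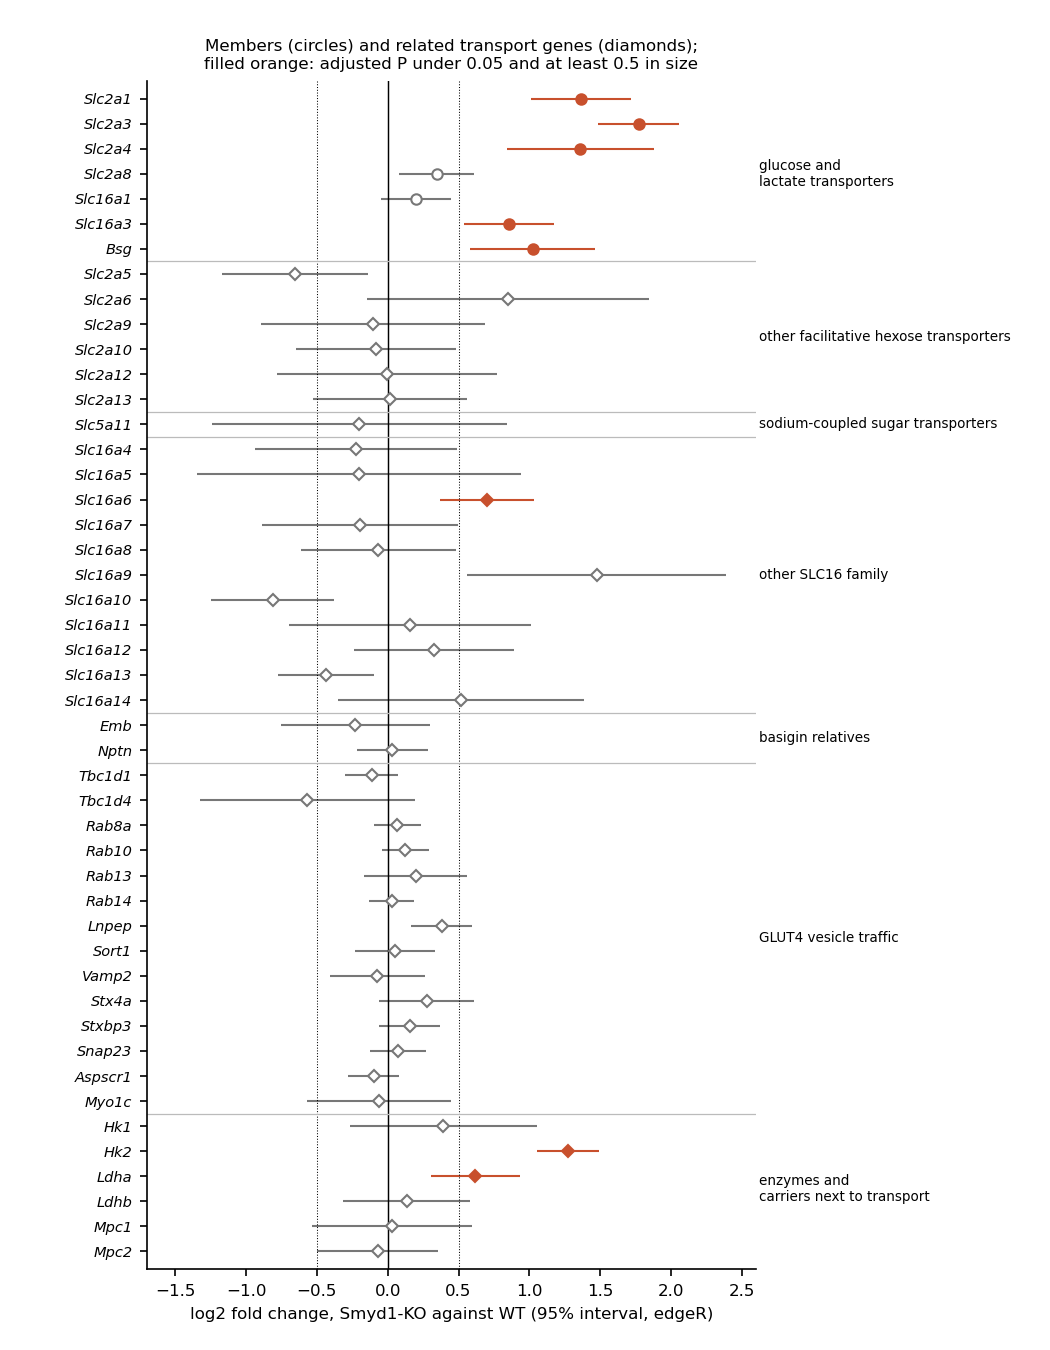
Log2 fold change of *Smyd1-KO* against WT hearts (horizontal axis, with 95% intervals) for the 7 transporter genes (circles) and the tested related genes (diamonds, 1 of the 41 left out), grouped by role; filled orange symbols were called by edgeR and dotted lines mark a size of 0.5. The called symbols are 5 of the 7 transporter genes, from *Slc16a3* at 0.85 to *Slc2a3* at 1.77, and *Slc16a6*, *Hk2* and *Ldha* among the others.

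In 4 of the called genes the lowest heart of each genotype was the one lowest in cardiomyocyte genes. *Smyd1-KO* heart 1 and WT heart 3 were each the lowest of their genotype in *Slc2a1*, *Slc2a4*, *Slc16a3* and *Bsg*, while WT heart 3 was the highest WT heart in *Slc2a3* and *Smyd1-KO* heart 1 the highest *Smyd1-KO* heart in *Slc16a1*. Per 1000 CPM of the summed cardiomyocyte markers of the same heart, a scale chosen after the values had been seen, *Slc2a1* was at 115-212 in *Smyd1-KO* and 43.1-62.1 in WT hearts. *Slc2a3* was at 89.3-200.4 and 25.2-49.2, *Slc2a4* at 1.73-2.32 and 0.633-0.773, *Slc16a3* at 53.2-86.4 and 27.7-36.8, and *Bsg* at 61.0-92.8 and 27.9-36.6. These 5 genes stayed separate between the genotypes on this scale, as 7.73% of the tested genes did with *Smyd1-KO* above WT. *Slc2a8* (0.949-2.21 and 0.742-1.17) and *Slc16a1* (8.30-21.5 and 8.14-12.9) overlapped. In all 7 genes the log2 difference was larger on this scale than in CPM, as 1.55 against 1.37 in *Slc2a1*. The scale itself differed in part by genotype. Of its markers, *Myh6* was lower in every *Smyd1-KO* heart (mean 2290.4 CPM, against 3748.5 in WT), and the others overlapped. Among markers of other cells, the endothelial and endocardial genes (9 of 9 found) summed to 706-1075 CPM in the mutant hearts and to 704-867 CPM in WT hearts, and the epicardial genes (6 of 6 found) to 141-266 and 106-129 CPM. Foregut and epithelial genes (5 of 5 found) summed to 216, 169 and 97.4 CPM in *Smyd1-KO* hearts 1 to 3. In WT hearts 1 to 3 they summed to 96.7, 128 and 163 CPM. *Smyd1-KO* heart 1 and WT heart 3, lowest in cardiomyocyte genes, were thus the highest of their genotype in this sum. Macrophage genes (6 of 6 found) and platelet and megakaryocyte genes (5 of 5 found, *Gp1bb* at 0) stayed below 10 CPM in sum in every heart. The sums of the erythroid and of the epicardial markers did not overlap between the genotypes. Taken singly, *Upk3b* was separate among the epicardial genes and the others overlapped. Among the endothelial and endocardial genes, *Kdr* was higher in every *Smyd1-KO* heart (log2 fold change 0.70). *Nfatc1* (-0.83) and *Npr3* (-0.52) were lower in every *Smyd1-KO* heart, and the others overlapped. edgeR called 0 of these 9, and DESeq2 called 1 higher and 2 lower, against 5.98% and 3.31% of all genes. The part of these cells in the transporter values was not tested.

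**Figure D4:**
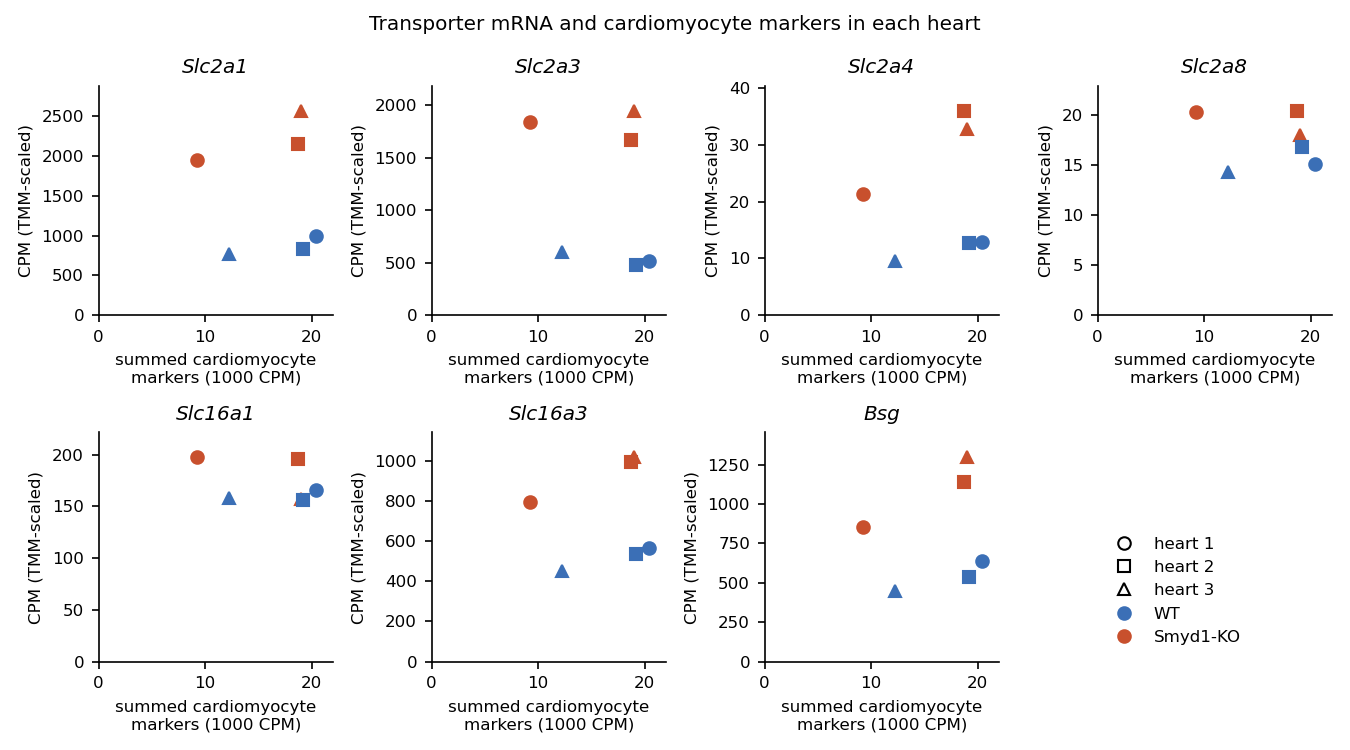
For each of the 7 genes, TMM-scaled CPM (vertical axis, from 0) is plotted against the summed CPM of 10 cardiomyocyte markers (horizontal axis, in units of 1000 CPM); each symbol is 1 heart. *Smyd1-KO* heart 1 (9197 CPM of markers) and WT heart 3 (12276 CPM) lie to the left, and in *Slc2a1*, *Slc2a3*, *Slc2a4*, *Slc16a3* and *Bsg* each *Smyd1-KO* symbol is above each WT symbol on both sides.

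The genes whose profiles over the 6 hearts were most like each transporter were listed from 12012 candidates, by the root mean square difference of log2 CPM centred on the WT mean. The measure takes in the size of the genotype difference, and the order is given as a description. *Slc2a1* was nearest to *Hmox1* (0.0811), which encodes haem oxygenase 1, then *Bst2* and *Gmfg*. *Slc2a3* was nearest to *Tmem229a* (0.120), then *Pfkfb3*, whose enzyme makes an activator of glycolysis, and *Upp1*. *Slc2a4* was nearest to *Egr1* (0.0832), an immediate early transcription factor gene, then *Pfkp*, a phosphofructokinase gene, and *Pygl*, a glycogen phosphorylase gene. *Slc16a3* was nearest to *Nr4a1* (0.0510), an orphan nuclear receptor gene, then *Triqk* and *Klhdc1*. *Bsg* was nearest to *Nyap1* (0.0857), then *Higd1a* and *Ppp1r3g*, which encodes a glycogen-targeting subunit of protein phosphatase. Of the uncalled members, *Slc2a8* was nearest to *Dusp5* (0.0352), then *Wdr45* and *Agap1*, and *Slc16a1* to *Pabpc4* (0.0427), then *Map4k1* and *Wars2*. None of the 7 members was among the 3 nearest of another.

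**Figure D5:**
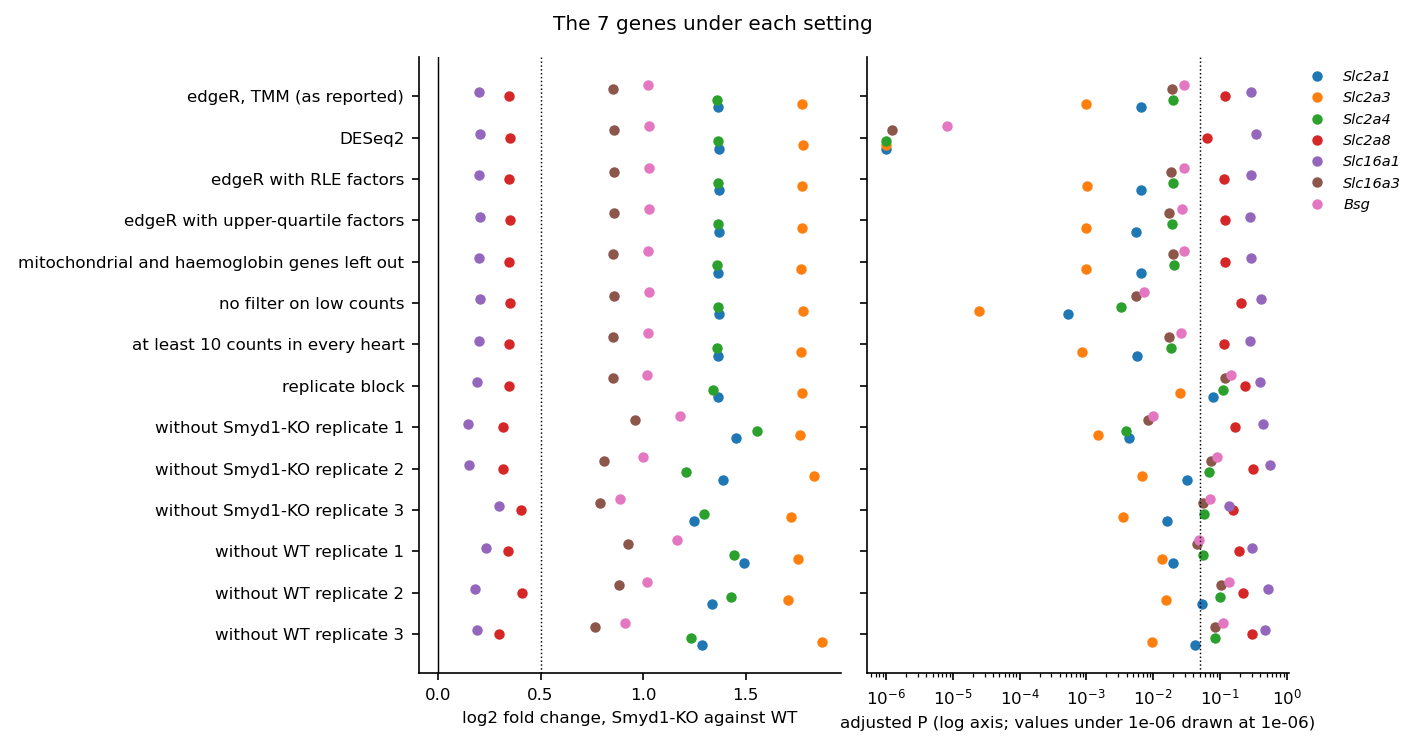
Each line is 1 way of processing the same counts, with the log2 fold change of the 7 genes on the left and their adjusted *P* (log scale) on the right; dotted lines mark 0.5 and 0.05. The points of a gene hold their place on the left, as *Slc2a3* at 1.70-1.87, while on the right those of *Slc2a4*, *Slc16a3* and *Bsg* pass the dotted line when most single hearts are left out.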

How the data were processed

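RNA of 3 *Smyd1-KO* and 3 WT hearts at E9.5 was compared. The authors selected poly A RNA, made paired-end reads from it and used STAR, run through bcbio-nextgen, to align them to mm10. The values used are raw read counts per gene, deposited as whole numbers without normalization. The counting tool, annotation release and strand setting are not given in the sources used here. A second deposited table, of counts divided by size factors, was not used. All sample columns were mapped, leaving 0 unmapped.

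Counts were analysed in R 4.3.3 with edgeR 4.0.16 (filterByExpr, TMM, quasi-likelihood test, Benjamini-Hochberg adjustment over 19372 genes), with genotype as the only term. Standard errors are the log2 fold change divided by the square root of the F statistic. CPM are TMM-scaled, and log2 CPM carry a prior count of 2. Lengths came from GENCODE M21 (GRCm38), which held 54409 of the 54532 genes. Interval estimates are at 95%. DESeq2 1.42.0, with genotype as the only term, was an alternative. Other edgeR runs used RLE or upper-quartile factors, left out mitochondrial and haemoglobin genes, or used other filters on low counts. Further ones had no fold limit, the replicate number as a block, or each heart left out in turn. Scripts were tested on simulated data. Tables and plots were made in Python 3.11.15 with pandas 2.3.3 and matplotlib 3.10.9.

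The 7 members, the related lists and the marker lists were chosen with earlier results of these data known. Named were all members, called genes of the related lists and *Smyd1*. Some uncalled or untested genes of these lists, and some markers, were named as well. For each member, the 3 tested genes of mean log2 CPM at least 1 with the nearest profile were named, predicted genes skipped. 1 gene of the lists, part of the counts, is not reported here. Each heart came from a separate embryo.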

Additional observations from a re-analysis of the deposited data

How the results depend on the processing

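The 7 log2 fold changes kept their direction under every alternative run. With DESeq2, RLE or upper-quartile factors, mitochondrial and haemoglobin genes left out, no filter, at least 10 counts in every heart or no fold limit, 5 of the 7 transporter genes were called. With the replicate number as a block, 1 of the 7 (*Slc2a3*, adjusted *P* = 0.0252) and 1 of the related genes (*Hk2*) were called, while the calls over all genes fell to 56 higher (0.289%) and 3 lower. The sources used here do not say that the numbers pair the hearts, which are different embryos, and litters were not given. Deviations from the genotype means of same-numbered hearts correlated at -0.216, -0.054 and -0.182. So few values cannot show whether the hearts were paired. Leaving out 1 heart gave 1 to 5 called transporter genes and 1 to 3 called related genes, with 89 (without WT heart 2) to 809 (without *Smyd1-KO* heart 1) genes called higher over all, beside 555 with every heart. Of the related genes, 3 were called in the report, 7 with DESeq2 and 5 with no filter on low counts. The ratios moved by less than 1 SD under every alternative, each heart left out included. Total counts in place of TMM and a prior count of 0.5 could hardly move a ratio within a heart. With the longest transcript as length, 5 of the 14 levels per kb moved by more than 1 SD. With 3 hearts a genotype, exact tests cannot pass 0.05, and why calls were lost with a heart left out was not tested.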
